A study of Mus musculus with 8 samples.

Results

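Dual-specificity phosphatases (Dusp), which switch off MAP kinases, and the Nr4a orphan nuclear receptors were examined in RNA-seq of sorted regulatory T (Treg) cells. The genes were Dusp1, Dusp2, Dusp4, Dusp5, Dusp6, Dusp10, Nr4a1, Nr4a2 and Nr4a3, 9 of the 49212 genes counted, taken by symbol from the count tables. They were chosen by their values in the KO and WT samples, in which Dusp2 had differed in opposite directions in tumor and spleen. KO over WT values of these genes are therefore given as a description with no test. Tumor over spleen was tested within each genotype for the 8 genes other than Dusp2. These tests use the libraries that the genes were selected on, so their p-values and calls are not independent of the selection.

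All mice were C57BL/6 animals of 5 to 10 weeks and of both sexes with B16-OVA melanoma, a B16 line that carries ovalbumin, taken at a tumor size of at most 1.5 cm3. All were given NP-OVA in complete adjuvant on day 0 and in incomplete adjuvant on day 7. The KO mice were Prdm1fl/flFoxP3YFP-Cre, in which Cre under Foxp3 deletes Prdm1, the gene of the repressor Blimp1, in cells that have expressed Foxp3. The WT mice were FoxP3YFP-Cre and so carried the same YFP-Cre allele with an intact Prdm1. Cells positive for CD45, CD44, YFP, CD4 and CD3 (eTreg cells) were sorted from spleen and from tumor (TIL), with 2 libraries for each of the 4 groups. Spleens were mashed, whereas tumors were digested warm with collagenase/Dispase and DNase, so tissue and preparation cannot be told apart. By the paper's methods, red cells of the spleen were lysed and its CD4 T cells were enriched on beads ahead of the sort, whereas tumor cells went over a density gradient. The sources do not say whether replicates were separate mice or pools, and p-values then measure only the spread between these samples, which may be technical.

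Each library held between 27834676 and 43903859 counts on genes. Levels are given in CPM, counts scaled to a common library size with TMM factors, and 3 counts correspond to between 0.0644 and 0.112 CPM, a floor that covers counting error only. All 9 genes passed the filter on low counts in every comparison, with at least 242 counts in each library. Replicates of each group differed by more than sampling noise, and the chi-square per degree of freedom lay between 37.2 and 344.4.

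Prdm1 was measured first as a check of the labels. It was at 54.0 and 21.0 CPM in the WT spleen samples and at 40.6 and 53.4 CPM in the samples labelled KO from spleen, so the genotypes overlapped there. In TIL it was at 108 and 192 CPM in WT and at 90.7 and 75.1 CPM in KO, with both KO samples below both WT samples. The gene count sums all exons, those outside the deleted part included, and so checks little of the deletion. Foxp3, which defines Treg cells, was at 69.6 and 58.1 CPM in WT spleen, 43.0 and 56.4 CPM in KO spleen, and 25.5 and 60.5 CPM in WT TIL, but at 10.2 and 2.99 CPM in KO TIL. Cd4, which the sort required, was at 807 and 1086 CPM in WT TIL and at 148 and 66.2 CPM in KO TIL. The 7 Treg markers measured (Foxp3, Il2ra, Ikzf2, Ctla4, Tnfrsf18, Cd4 and Cd3e) summed to 7868 and 11169 CPM in WT TIL and to 1205 and 2453 CPM in KO TIL, against 3560 to 4267 CPM over the 4 splenic samples. Ctla4 had the highest mean of them over the 4 TIL samples, at 4136 and 5719 CPM in WT and 461 and 917 CPM in KO, and the KO values were above the 312 and 311 CPM of KO spleen. Of the 7, all but Cd3e were lower in both KO TIL samples than in both WT TIL samples. Cd3e overlapped, at 927 and 1427 CPM in WT TIL and 315 and 1023 CPM in KO TIL. In such bulk samples, fewer cells of a type and less RNA per cell cannot be told apart.

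A signal through the T cell receptor activates the kinases ERK, JNK and p38, and their targets include the genes of phosphatases that take phosphate off the same kinases, which makes a feedback loop. Dusp1, Dusp2, Dusp4 and Dusp5 are inducible phosphatases of the nucleus, Dusp6 acts on ERK in the cytoplasm, and Dusp10 acts mainly on p38 and JNK. Nr4a1 (Nur77), Nr4a2 (Nurr1) and Nr4a3 (Nor1) are transcription factors induced within a short time of receptor engagement, widely used as a readout of it, and known for roles in Treg cell maintenance and in T cells that meet antigen for long.

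Comparing TIL with spleen in WT mice, the Nr4a receptors, Dusp4 and Dusp10 were higher in TIL eTreg cells. A gene passed where the quasi-likelihood test of edgeR gave a Benjamini-Hochberg adjusted p below 0.05 and the log2 fold change was past 1 in either direction. By this measure 5 of the 8 genes tested were higher, and 0 were lower by edgeR, at an unadjusted p under 0.05, or by DESeq2. Over all 16427 genes tested, 4.10% were higher (674 genes) and 1.87% lower (307 genes). In KO mice, Nr4a1, Nr4a2, Dusp4 and Dusp5 were higher in TIL, 4 of 8, against 0.803% of 16933 genes higher (136 genes) and 0.543% lower (92 genes), with 0 of the 8 lower by the same 3 counts. DESeq2 called 6 of the 8 higher in KO, against 13.1% of 19396 genes. The tissue comparisons use the libraries that the genes were selected on, so the counts called among the 8 genes are not independent of the selection. Nothing is read from these counts beside the shares of all genes. Dusp5 and Nr4a2, called in KO, and Nr4a3 had both KO samples above both WT samples in TIL and below them in spleen. This pattern itself favours a larger TIL over spleen value in KO. The KO tissue calls and p-values of these genes are thus no independent support for such a rise. For Dusp2 the tissue values follow from what it was chosen by, so the test planned for it was dropped. Whether a tissue difference itself differed between genotypes was not tested for these genes.

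**Figure D1:**
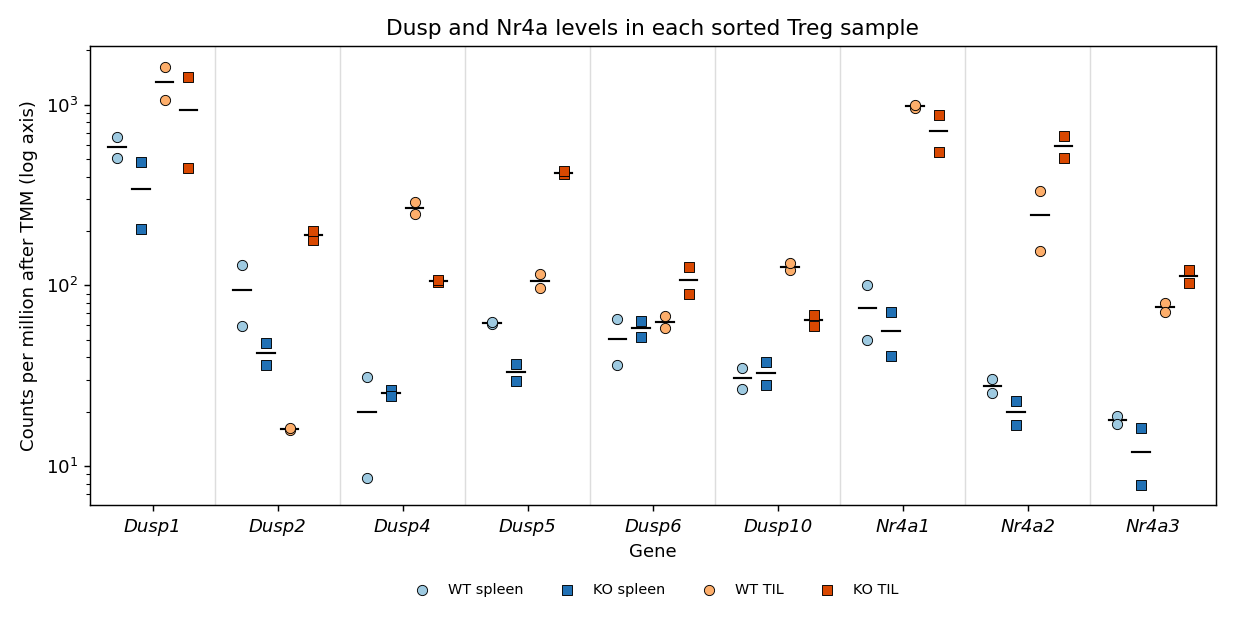
Level of each gene in CPM on a log axis, with a point for each of the 8 samples and a bar for the mean of a group (n = 2). The WT TIL samples of Dusp2 sit at 15.8 and 16.2 CPM, below all other samples, and the KO TIL samples at 179 and 199 CPM, above all others.

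Among the receptors, Nr4a1 was at 101 and 49.95 CPM in WT spleen and at 954 and 999 CPM in WT TIL. In KO mice it was at 71.1 and 40.4 CPM in spleen and at 878 and 545 CPM in TIL. All 4 TIL samples lay above all 4 splenic samples. The log2 fold change of TIL over spleen was 3.70 in WT (standard error 0.54, adjusted p = 0.00458 from edgeR) and 3.70 in KO (standard error 0.45, adjusted p = 0.0485 from edgeR). The WT call stood without each library in turn, with a value of 4.31 without WT spleen replicate 1, and the KO call was lost without either KO spleen library (adjusted p up to 0.152 from edgeR).

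Nr4a2 was at 25.3 and 30.3 CPM in WT spleen and at 334 and 156 CPM in WT TIL. In KO it was at 22.9 and 16.8 CPM in spleen and at 504 and 675 CPM in TIL. It was thus highest in KO TIL and lowest in KO spleen, and no groups overlapped. The log2 fold change of TIL over spleen was 3.14 in WT (standard error 0.53, adjusted p = 0.00827 from edgeR) and 4.90 in KO (standard error 0.32, adjusted p = 0.0332 from edgeR). Leaving out single libraries kept the call in 2 of 4 fits in WT, where the value was 2.501 without WT TIL replicate 1, and in 2 of 4 in KO.

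Nr4a3 was at 18.9 and 17.1 CPM in WT spleen and at 79.8 and 71.7 CPM in WT TIL. In KO it was at 16.2 and 7.90 CPM in spleen and at 103 and 122 CPM in TIL. All 4 TIL samples were again above the splenic ones. In WT the log2 fold change was 2.07 (standard error 0.43, adjusted p = 0.0217 from edgeR), a call made in 1 of 4 fits that left out a library. In KO it was 3.24 (standard error 0.41) and narrowly missed the threshold (adjusted p = 0.0501 from edgeR), while the Wald test of DESeq2 gave an adjusted p of 2.5e-09. Without single libraries the KO value ranged from 2.85 to 3.87.

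Of the nuclear phosphatases, Dusp2 (PAC-1) was at 59.8 and 129 CPM in WT spleen and at 15.8 and 16.2 CPM in WT TIL. In KO it was at 47.9 and 36.4 CPM in spleen and at 179 and 199 CPM in TIL. The WT TIL samples were the lowest of the 8 and the KO TIL samples the highest, without overlap. The log2 value of TIL over spleen was -2.56 in WT (standard error 0.51) and 2.18 in KO (standard error 0.24), a description with no test. Without WT spleen replicate 2 the WT value was -1.86, and over the alternatives it ranged from -2.99 to -1.86 in WT and from 2.03 to 2.41 in KO.

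Dusp4, which acts on ERK and JNK, was at 31.0 and 8.63 CPM in WT spleen and at 289 and 249 CPM in WT TIL. In KO mice it was at 26.5 and 24.4 CPM in spleen and at 104 and 108 CPM in TIL. The WT TIL samples were the highest and the KO TIL samples came next, above all splenic ones. The log2 fold change of TIL over spleen was 3.77 in WT (standard error 0.64, adjusted p = 0.00831 from edgeR) and 2.07 in KO (standard error 0.20, adjusted p = 0.0374 from edgeR). Its WT value was 4.98 without WT spleen replicate 1 and 3.16 without WT spleen replicate 2, and both passed. Its KO call was lost without either KO spleen library (adjusted p up to 0.196 from edgeR) and with the replicate block (adjusted p = 0.0602 from edgeR), over a range of 1.8e-08 to 0.196.

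Dusp5, a phosphatase of nuclear ERK, was at 61.4 and 63.0 CPM in WT spleen and at 116 and 96.4 CPM in WT TIL. In KO mice it was at 36.7 and 29.7 CPM in spleen and at 412 and 428 CPM in TIL. The KO TIL samples stood above the rest and the KO splenic samples below. TIL over spleen passed in KO (log2 fold change 3.68 with a standard error of 0.24 and an edgeR adjusted p of 0.0332) and not in WT (log2 fold change 0.77 with a standard error of 0.42 and an edgeR adjusted p of 0.337). The KO call of Dusp5 was lost without either KO spleen library (adjusted p up to 0.131 from edgeR).

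Dusp1 (MKP-1) was at 663 and 505 CPM in WT spleen, 1061 and 1619 CPM in WT TIL, 481 and 205 CPM in KO spleen, and 1427 and 447 CPM in KO TIL. The WT tissues did not overlap, whereas the KO tissues did, since KO TIL replicate 2 lay below KO spleen replicate 1. Neither log2 fold change passed, at 1.1996 in WT (standard error 0.48, adjusted p = 0.191 from edgeR) and 1.48 in KO (standard error 0.72, adjusted p = 0.239 from edgeR). The KO value was 0.38 without KO TIL replicate 1 and 2.22 without KO spleen replicate 1, neither of which passed. Without KO TIL replicate 2 it was 2.10 and passed (adjusted p = 0.0207 from edgeR, with a range of 0.0207 to 0.711 over the alternatives).

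The cytoplasmic ERK phosphatase Dusp6 was at 65.4 and 36.2 CPM in WT spleen, 68.1 and 57.9 CPM in WT TIL, 63.8 and 51.9 CPM in KO spleen, and 126 and 89.2 CPM in KO TIL. It varied least of the 9 over the 8 samples, with the highest 3.48 times the lowest, against 40.1 times for Nr4a2. The log2 fold change of TIL over spleen was 0.31 in WT (standard error 0.45, adjusted p = 0.749 from edgeR) and 0.92 in KO (standard error 0.28, adjusted p = 0.110 from edgeR). The KO value was 1.17 without KO TIL replicate 2 and then passed (adjusted p = 0.00724 from edgeR, with a range of 0.00724 to 0.603 over the alternatives), and the WT value turned to -0.011 without WT spleen replicate 2.

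Dusp10, the phosphatase of p38 and JNK, was at 35.0 and 26.8 CPM in WT spleen and at 121 and 132 CPM in WT TIL. In KO mice it was at 37.7 and 28.1 CPM in spleen and at 59.5 and 68.7 CPM in TIL. As with Dusp4, WT TIL was highest and KO TIL lay between it and spleen. TIL over spleen passed in WT (log2 fold change 2.04 with a standard error of 0.44 and an edgeR adjusted p of 0.0234) and not in KO (log2 fold change 0.98 with a standard error of 0.24 and an edgeR adjusted p of 0.0782). The WT call of Dusp10 was made in 1 of 4 fits that left out a library. A KO call was made by DESeq2's Wald test (log2 fold change 1.01, adjusted p = 0.0426) and without KO TIL replicate 1 (1.06, adjusted p = 0.0142 from edgeR), with a range of 0.0142 to 0.567 over the alternatives.

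**Figure D2:**
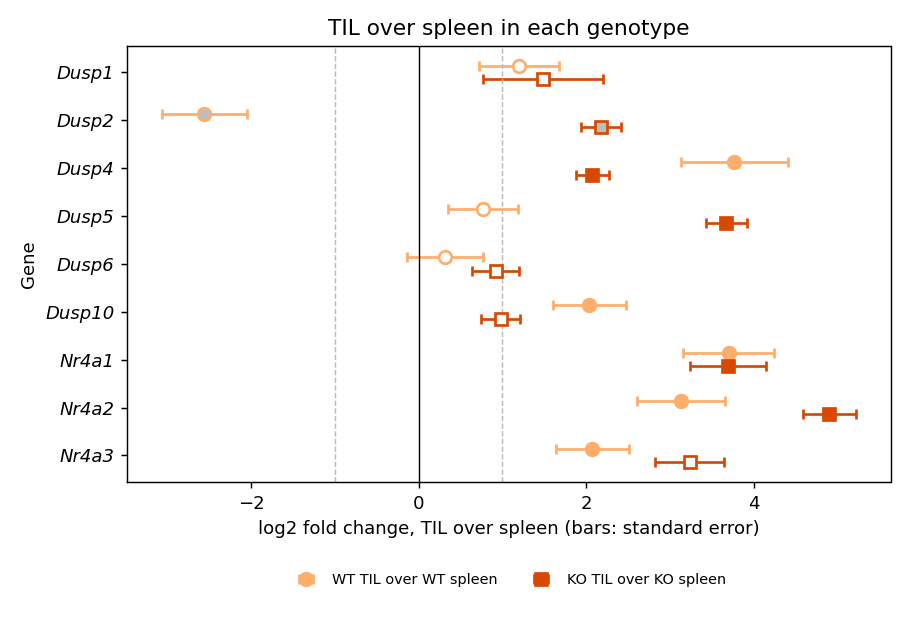
log2 fold change of TIL over spleen for each gene in WT (circles) and KO (squares), with bars for the standard error, n = 2 samples for each group. Symbols filled in color passed edgeR's test, those of Dusp2, in grey, were not tested, and dashed lines mark a log2 fold change of 1 in each direction. Dusp2 is the single gene with a negative value, -2.56 in WT.

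With 2 samples for each group, single libraries weighed on these calls. When each was left out in turn, which assumes that the lone sample varies like the other group, Dusp4 and Nr4a1 passed in all 4 WT fits. Without WT spleen replicate 2, Dusp10 (log2 fold change 1.90), Nr4a2 (3.31) and Nr4a3 (2.05) missed the threshold (adjusted p 0.0590 to 0.0611 from edgeR), and without WT TIL replicate 1 the same 3 genes did, at 2.12, 2.501 and 2.01. Without WT TIL replicate 2, Dusp10 (2.01) and Nr4a3 (2.19) missed it. The number of all genes called in WT was 213 without WT spleen replicate 2 and 513 without WT TIL replicate 1, against 981. In KO, edgeR called 0 genes without KO spleen replicate 1 and 0 without KO spleen replicate 2, against 228, where 2688 and 2712 genes had an unadjusted p under 0.05. The log2 fold change of Dusp5 was then 3.86 and 3.56, that of Nr4a2 5.17 and 4.74, that of Nr4a1 4.17 and 3.37, and that of Dusp4 2.15 and 2.04. Without KO TIL replicate 1, 3549 genes were called and without KO TIL replicate 2, 4958, with Nr4a3 past the threshold in both (3.34 and 3.14). On all 4 KO libraries 5256 genes had an unadjusted p under 0.05, and DESeq2 called 3813.

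Levels of different genes were compared as CPM per kilobase of the counted exon length. In WT spleen Dusp1 led at 217 ± 41.6 (SD, n = 2), followed by Dusp2 at 47.1 ± 24.4, Nr4a1 at 30.5 ± 14.5, Dusp5 at 25.2 ± 0.437, Dusp6 at 18.2 ± 7.38, Dusp10 at 10.2 ± 1.88, Dusp4 at 7.24 ± 5.78, Nr4a2 at 6.86 ± 0.870 and Nr4a3 at 3.01 ± 0.201. Neighbours in this order overlapped except at the steps from Dusp1 to Dusp2, from Dusp5 to Dusp6, from Dusp6 to Dusp10 and from Nr4a2 to Nr4a3. In WT TIL the order was Dusp1 at 496.9 ± 146 (SD, n = 2), Nr4a1 at 395 ± 12.9, Dusp4 at 98.2 ± 10.2, Nr4a2 at 60.3 ± 31.0, Dusp5 at 42.9 ± 5.50, Dusp10 at 41.7 ± 2.56, Dusp6 at 22.5 ± 2.58, Nr4a3 at 12.6 ± 0.963 and Dusp2 at 7.995 ± 0.149. Dusp2 thus went from second place to last. Here Dusp1 and Nr4a1 overlapped, as did Nr4a2 and Dusp5, and Dusp5 and Dusp10.

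In KO spleen the order per kilobase began with Dusp1 at 127 ± 72.2 (SD, n = 2) and ended with Nr4a3 at 2.01 ± 0.976, and Dusp2 came after Nr4a1 at 21.1 ± 4.07, overlapping it as well as Dusp6 below. In KO TIL it was Dusp1 at 347 ± 257, Nr4a1 at 288 ± 95.3, Dusp5 at 169.8 ± 4.71, Nr4a2 at 145 ± 29.8, Dusp2 at 94.3 ± 7.20, Dusp4 at 38.6 ± 0.880, Dusp6 at 38.5 ± 9.34, Dusp10 at 21.1 ± 2.13 and Nr4a3 at 18.8 ± 2.25. The first place of Dusp1 rested on replicate 1 (529 per kilobase), since in replicate 2 it was at 165.9, below Nr4a1 (220.3), Dusp5 (173) and Nr4a2 (166.2). It overlapped these 3 genes, and Dusp4 overlapped Dusp6 and Dusp10 overlapped Nr4a3. Dusp5 ranked above Dusp4 in KO TIL and below it in WT TIL. In WT TIL the level of Dusp1 per kilobase was above that of 99.5% of the genes with a count and that of Dusp2 above 76.3%. The lowest such share was that of Nr4a3 in spleen, at 63.4% in WT and 59.6% in KO.

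KO and WT were next set side by side in each tissue, the comparison the genes were chosen by, so nothing is read from these counts. In TIL, both KO samples were above both WT samples for Dusp2, Dusp5, Dusp6, Nr4a2 and Nr4a3, 5 of 9, against 18.0% of all 15935 genes, and below for Dusp4, Dusp10 and Nr4a1, 3 of 9, against 19.4%. The log2 values of KO over WT were 3.56 for Dusp2, 1.98 for Dusp5, 1.27 for Nr4a2, 0.77 for Dusp6, 0.57 for Nr4a3, -0.46 for Nr4a1, -0.52 for Dusp1, -0.99 for Dusp10 and -1.35 for Dusp4. In spleen, none of the 9 had both KO samples above both WT samples, against 16.4% of 16583 genes. Dusp1, Dusp2, Dusp5, Nr4a2 and Nr4a3 had both below, 5 of 9, against 15.7%. The splenic values were -1.17 for Dusp2, -0.91 for Dusp5, -0.78 for Dusp1, -0.59 for Nr4a3, -0.50 for Nr4a2, -0.44 for Nr4a1, 0.085 for Dusp10, 0.18 for Dusp6 and 0.36 for Dusp4. Single libraries moved some of these values. In spleen, Dusp2 was at -0.50 without WT spleen replicate 2, Dusp1 at -1.49 without KO spleen replicate 1 and Dusp4 at 1.62 without WT spleen replicate 1. Signs turned as well, since Dusp4 was at -0.28, Dusp6 at -0.17 and Dusp10 at -0.085 without WT spleen replicate 2, Dusp10 at -0.12 without KO spleen replicate 1, and Nr4a1 at 0.21 without WT spleen replicate 1. In TIL, Dusp1 was at 0.070 without KO TIL replicate 2 and Nr4a2 at 1.91 without WT TIL replicate 1. Both patterns together, above in TIL and below in spleen, were seen for Dusp2, Dusp5, Nr4a2 and Nr4a3, 4 of 9, against 2.14% of 14787 genes. Dusp2 alone of the 9 was also below spleen in WT TIL and above it in KO TIL without overlap, against 2.14% of 15871 genes.

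Over all genes, edgeR called 0 (0%) between KO and WT in either tissue and 0 (0%) for the interaction of genotype and tissue. With the replicate number as a block it did call genes between KO and WT in spleen and in TIL, as given under the processing below. Before adjustment, p was under 0.05 for 489 genes in spleen, 1573 in TIL and 1399 of 17870 for the interaction, and DESeq2 called 75, 761 and 307. The splenic count rested on single libraries, since edgeR called 3972 genes without WT spleen replicate 1, 47 without replicate 2, and 32 and 21 without KO spleen replicate 1 and 2. The interaction, the log2 KO over WT value in TIL minus that in spleen, was 4.72 for Dusp2, 2.89 for Dusp5, 1.76 for Nr4a2, 1.15 for Nr4a3, 0.59 for Dusp6, 0.25 for Dusp1, -0.021 for Nr4a1, -1.07 for Dusp10 and -1.71 for Dusp4. Dusp2 thus had the TIL over spleen value that differed most between the genotypes. Without WT spleen replicate 2 it was 4.06 for Dusp2 and -1.06 for Dusp4, without WT spleen replicate 1 it was -2.91 for Dusp4, without KO spleen replicate 1 it was 1.77 for Nr4a3, and without WT TIL replicate 1 it was 2.44 for Nr4a2. The sign for Nr4a1 turned without KO spleen replicate 1 (0.44), WT spleen replicate 2 (0.39) or KO TIL replicate 2 (0.28). That for Dusp1 turned without KO spleen replicate 2 (-0.25), KO TIL replicate 1 (-0.83) or WT TIL replicate 1 (-0.0036). In the other direction, leaving out a single library gave up to 0.997 for Dusp1 and down to -0.62 for Nr4a1.

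Differences between samples varied with base composition. Genes were grouped by the richest 200 nt window of G and C in their longest transcript, in steps of 5%. The median log2 KO over WT in TIL was 1.04 for the 728 genes with 80% to 85% and 0.26 for the 1637 genes with 75% to 80%, and -0.0027 for the 3195 genes with 60% to 65%. Dusp2 had a window of 80%, Dusp5 of 78.5%, Dusp1 of 75%, Nr4a2 and Nr4a3 of 74%, Dusp4 of 71.5%, Dusp6 of 66%, Nr4a1 of 65% and Dusp10 of 60.5%. Less the median of its own group, Dusp2 was at 2.52 and Dusp5 at 1.72, and Nr4a2 at 1.23. The groups also differed in WT TIL over WT spleen, with a median of -0.71 for 80% to 85% and 0.014 for 75% to 80%. Less the median of its own group Dusp2 was at -1.86, and Nr4a1 was at 3.57 and Dusp4 at 3.62. In KO TIL over KO spleen the median for 80% to 85% was 0.38, and Dusp2 less that median was at 1.80. For the interaction the median was 1.12 for the 773 genes with 80% to 85%, and less the median of its own group Dusp2 was at 3.60, Dusp5 at 2.76, Nr4a2 at 1.84 and Nr4a3 at 1.24. Of the list genes given below, those called lower in WT TIL by edgeR, Bach2 and Klf2, had windows of 81% and 81.5%, within the group of 80% to 85%. The part of GC content in these values was otherwise not tested. No exon of the 9 genes overlapped an exon of another gene on either strand.

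Genes of the surrounding pathway were taken from fixed lists and are given for WT TIL over WT spleen, where the median log2 value of all genes was -0.043. Of all genes, 20.5% had an unadjusted p under 0.05 in WT and 31.0% in KO. DESeq2 called 6.50% higher and 3.42% lower in WT, and 13.1% higher and 6.58% lower in KO. Of 17 other Dusp family genes, 14 were tested, 2 were higher and 0 lower by edgeR (4.10% and 1.87% of all genes), with a median of -0.019 and 6 at an unadjusted p under 0.05. DESeq2 called 5, with Dusp7 lower. Dusp14 was at 22.9 and 21.2 CPM in WT spleen and at 266 and 199 CPM in WT TIL (log2 fold change 3.40 with a standard error of 0.47 and an edgeR adjusted p of 0.00352). Dusp16, a JNK phosphatase, also rose (2.28, standard error 0.50, adjusted p = 0.0257 from edgeR). The lowest p among genes of negative value belonged to the ERK phosphatase Dusp7 (-1.92) and the pseudophosphatase Styxl1 (-3.20), which did not pass edgeR's test (adjusted p = 0.0968 and 0.0993 from edgeR). In KO, 1 of 15 was higher by edgeR (0.803% of all genes), Dusp14 (1.96, adjusted p = 0.0383 from edgeR), with 9 at an unadjusted p under 0.05 and 6 called higher by DESeq2.

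Of 12 Sprouty, Spred and Ras GTPase activating genes, which restrain the pathway upstream, 10 were tested in WT and 0 passed the edgeR test in either direction (4.10% and 1.87% of all genes), with a median of 0.020, 2 at an unadjusted p under 0.05 and 0 called by DESeq2. Spry4 had a log2 value of 2.87, Spry2 of 1.12, Rasa1 of -1.13 and Rasa3 of -0.65. In KO, DESeq2 called 4 of 10, with 3 higher and 1 lower, and 4 had an unadjusted p under 0.05. By edgeR 1 was higher (0.803% of all genes), Spry2, at 0.193 and 0.203 CPM in KO spleen and 5.84 and 7.63 CPM in KO TIL (5.07, standard error 0.51, adjusted p = 0.0374 from edgeR). Of 26 kinases and GTPases of the cascade, 1 was higher (3.8%) and 0 lower by edgeR in WT, against 4.10% and 1.87% of all genes, with a median of 0.20 and 10 at an unadjusted p under 0.05. DESeq2 called 3, Map3k8 and Map2k3 higher and Hras lower. By edgeR it was Map3k8, the kinase Tpl2 (2.26, standard error 0.44, adjusted p = 0.0164 from edgeR), and Map2k3 (1.61), Hras (-1.91) and Mapk14, which encodes p38 alpha (-1.47), did not pass edgeR's test. In KO, 0 of 26 were higher by edgeR and 1 was lower (0.803% and 0.543% of all genes), with 9 at an unadjusted p under 0.05, 5 called by DESeq2, and a median of 0.27 against 0.014 for all genes. The gene that fell, named after its values were seen, was Mapk11, which encodes p38 beta (-3.08, standard error 0.31, adjusted p = 0.0374 from edgeR).

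Of 18 ERK target genes, 3 were higher and 0 lower by edgeR in WT TIL (4.10% and 1.87% of all genes), with 14 of 18 positive, a median of 0.73 and 8 at an unadjusted p under 0.05 (20.5% of all genes). DESeq2 called 4, with Srf lower. Fosl2, a subunit of AP-1, was at 10.1 and 9.63 CPM in WT spleen and at 134 and 143 CPM in WT TIL (3.81, standard error 0.46, adjusted p = 0.00201 from edgeR). The immediate early gene Ier3 rose from 1.59 and 2.28 CPM to 170 and 28.9 CPM (5.68, standard error 0.84, adjusted p = 0.00477 from edgeR), whereas Srf (-1.90) and Ier5 (-1.47) did not pass edgeR's test. Phlda1, named after its values were seen, was the other gene that rose (1.81, standard error 0.45, adjusted p = 0.0424 from edgeR). Its call was lost whichever library was left out, with values from 1.67 to 1.99. In KO, 15 of 18 were positive with a median of 1.66, and 1 was higher by edgeR (0.803% of all genes), Fosl2 (4.45, standard error 0.39, adjusted p = 0.0366 from edgeR), with 8 at an unadjusted p under 0.05 (31.0%) and 10 called higher by DESeq2 (13.1%). Of 35 genes of proximal T cell receptor signalling, 0 passed the edgeR test in WT and 0 in KO, with medians of -0.017 and -0.51. At an unadjusted p under 0.05 there were 5 in WT and 10 in KO, and DESeq2 called 1 and 6. Among them Sla (1.30), Cblb (1.26), Fyn (-1.73) and Dgkz (-1.30) had the smallest p in WT. Of 9 genes known to act with Nr4a factors or beside them, 0 were higher by edgeR and 1 was lower in WT (4.10% and 1.87% of all genes), with 2 at an unadjusted p under 0.05 and 2 called by DESeq2. The gene that fell was Bach2, a repressor of effector fates, at 17.6 and 18.9 CPM in spleen and 1.01 and 1.99 CPM in TIL (-3.60, standard error 0.63, adjusted p = 0.00924 from edgeR). Irf4 (0.95), Rxra (0.76) and Tox2 (-1.66) did not pass edgeR's test, and DESeq2 called Tox2. In KO 0 were higher by edgeR and 2 lower (0.803% and 0.543% of all genes), with 4 at an unadjusted p under 0.05 and 4 called by DESeq2. These were Tox2 (-3.57, standard error 0.39, adjusted p = 0.0431 from edgeR) and, named after its values were seen, the Treg marker Ikzf2 (-2.48, standard error 0.30, adjusted p = 0.0485 from edgeR).

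Warm digestion itself is known to induce immediate early and heat shock genes. The 26 genes of a dissociation list, which leaves out Dusp1 and Nr4a1 and shares 6 genes with the ERK targets, summed to 7189.7 and 6626 CPM in WT spleen, 12224 and 13137 CPM in WT TIL, 7233 and 4832 CPM in KO spleen, and 14568 and 9494 CPM in KO TIL. The chaperone Hspa8 had the highest mean CPM of them over the 4 TIL samples together, but was below Junb in both WT TIL samples. In WT, 5 of 26 were higher and 1 was lower in TIL, against 4.10% and 1.87% of all genes, and the median log2 value was 0.78, with 10 at an unadjusted p under 0.05 and 8 called by DESeq2. In KO, 1 of 26 was higher and 0 lower by edgeR, against 0.803% and 0.543%, with a median of 1.24, 12 at an unadjusted p under 0.05 and 12 called by DESeq2. Atf3 rose by 5.83 on the log2 scale in WT (standard error 0.69, adjusted p = 0.00176 from edgeR), Klf2 fell by 4.91 (standard error 0.66, adjusted p = 0.00307 from edgeR), and Jun (-0.24) did not pass, nor did Hsp90aa1 (0.069) and Hspe1 (-0.20), named after their values were seen. The others that rose in WT, named after their values were seen, were Ier3, Junb (1.93), Hspa1a (2.05) and Gadd45b (1.96), and in KO it was Dnajb4 (2.05). Of the 12 list genes called in WT, Dusp14, Fosl2, Atf3 and Klf2 passed without each library in turn. The value of Atf3 was 4.82 and 6.46 without WT TIL replicate 1 and 2, that of Klf2 -3.97 without WT spleen replicate 2, and that of Hspa1a 2.70 without WT spleen replicate 1. Of the 12, 10 passed without WT spleen replicate 1, 4 without WT spleen replicate 2, 5 without WT TIL replicate 1 and 6 without WT TIL replicate 2, where for Ier3 the value was 5.46, 6.01, 3.92 and 6.49. Of the 7 called in KO, 0 passed edgeR's test without KO spleen replicate 1 or 2 and all 7 passed without KO TIL replicate 1 and without KO TIL replicate 2. The part of dissociation in the rise of the Nr4a genes and phosphatases was not tested.

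Transcripts of other cell types were present in the sorted TIL samples. The gene given in brackets with each list had the list's highest mean CPM over the 4 TIL samples together, which need not hold in each group. The 10 macrophage markers (Lyz2) summed to 468 and 2204 CPM in WT spleen, 3488 and 566 CPM in WT TIL, 315 and 853 CPM in KO spleen, and 16810 and 1987 CPM in KO TIL. Lyz2 was highest in each TIL sample and in no splenic sample. The pair of CD8 markers (Cd8a) summed to 24.3 and 30.7 CPM in WT spleen, 148 and 48.2 CPM in WT TIL, 15.0 and 17.5 CPM in KO spleen, and 406 and 2220.4 CPM in KO TIL. Cd8a was above Cd8b1 in KO TIL alone. The 8 melanoma markers (Tyrp1) summed to at most 9.27 CPM in spleen, where Tyr, Slc45a2 and Sox10 had 0 counts, to 2109.6 and 1157 CPM in WT TIL and to 3274 and 848 CPM in KO TIL. The 5 NK markers (Tyrobp, a gene of myeloid cells as well) summed to 173 and 41.1 CPM in WT TIL and 791 and 226 CPM in KO TIL, against 36.0 to 293 CPM in spleen, where Ncr1 and Klra8 had 0 counts. The 5 neutrophil markers (S100a8) summed to 64.5 and 4.66 CPM in WT TIL and 331 and 179 CPM in KO TIL, against 0.748 to 19.6 CPM in spleen.

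The 5 dendritic cell markers (Zbtb46) separated the tissues by their sum, although Zbtb46 was not the highest of them in KO TIL and overlapped there with KO spleen. They summed to 13.5 and 22.9 CPM in WT spleen, 52.5 and 59.5 CPM in WT TIL, 12.9 and 17.2 CPM in KO spleen, and 71.6 and 59.0 CPM in KO TIL. Xcr1 among them, named after its values were seen, passed in WT (log2 fold change 2.42) and in KO (3.05). The 6 fibroblast markers (Pdgfrb) summed to 8.51 and 16.9 CPM in WT TIL and 6.92 and 1.31 CPM in KO TIL, against 0.535 to 1.68 CPM in spleen, where Col3a1 and Pdgfra had 0 counts. Pdgfrb was not the highest of them by mean in WT TIL. Over the 8 samples the 6 B cell markers (Cd79b) summed to 9.76 to 88.2 CPM. The 4 endothelial markers (Pecam1) summed to 34.3 to 111 CPM with Tek at 0 counts in spleen, and the 5 red cell genes (Hbb-bs) to 82.3 to 3366 CPM, the last in WT TIL replicate 1. No marker of these lists was at 0 in all TIL samples.

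**Figure D3:**
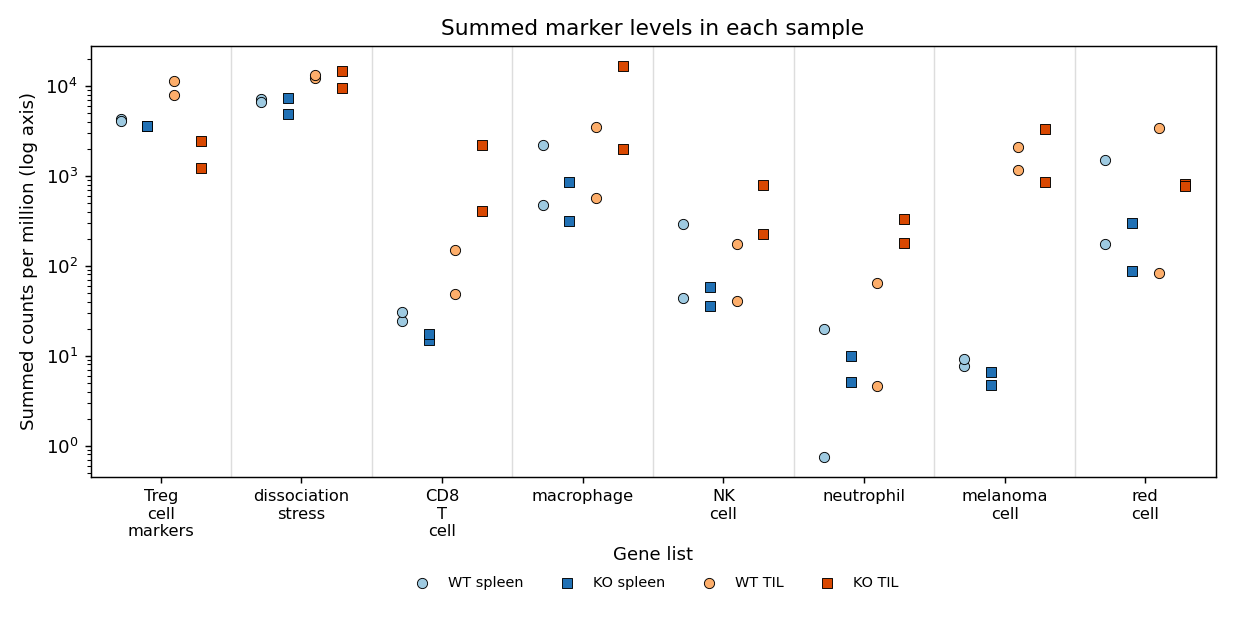
Summed CPM on a log axis of the genes in each of 8 lists, with a point for each sample. Treg markers are lowest in KO TIL, at 1205 and 2453 CPM, and the macrophage sum of KO TIL replicate 1, 16810 CPM, is the highest.

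The macrophage sum was higher in replicate 1 than in replicate 2 in KO TIL and in WT TIL, and Dusp2 was at 179 and 199 CPM in KO TIL and at 15.8 and 16.2 CPM in WT TIL. In WT spleen Dusp2 was higher in replicate 2 (129 against 59.8 CPM), the sample with the higher macrophage sum (2204 against 468 CPM), and in KO spleen it was lower in the sample with the higher sum. Without KO TIL replicate 1 the log2 KO over WT value in TIL was 3.63 for Dusp2 and 2.01 for Dusp5. Without KO TIL replicate 2, which held the highest CD8 sum, the values were 3.46 and 1.94. Dusp1 was higher in the sample with the higher macrophage sum in KO TIL and in the sample with the lower macrophage sum in WT TIL, WT spleen and KO spleen. Dusp1 and Nr4a1 were each higher in the sample with the higher dissociation sum in each of the 4 groups, which held for none of the other genes examined. The KO over WT value of Dusp1 in TIL went from -0.52 to -1.58 without KO TIL replicate 1. How much other cells contributed to the levels was not tested.

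The sequences before the gene starts were read from RefSeq (GRCm38.p6) to see what the genes share apart from their counts. Windows of 250 bases before the start were found for 8 of the 9 genes, Dusp4 being the other, and for 32851 starts in all. These starts differ in part from the gene starts in the files. The window of Dusp10 lies inside the span of its gene, and 152 bases of the Nr4a3 window, 47 of the Dusp1 window and 36 of the Dusp5 window lie in counted exons of these genes. The core of the cAMP response element, TGACG on either strand, which also lies within the full element TGACGTCA, was in the windows of Dusp1, Dusp5, Nr4a1, Nr4a2 and Nr4a3, 5 of 8, against 17.8% of all windows. Each of the 3 Nr4a windows held 4 copies, 1 of those in Nr4a3 within a counted exon. Dusp5 held 1, and Dusp1 held 3, since its full element counts once on each strand. The full element was in Dusp1 alone among the 8, against 1.55% of all windows. Dusp5 also held 2 matches of the CArG box, the motif of serum response factor, found in 1.47% of all windows. The NFAT core GGAAA was in Dusp5, Dusp6 and Nr4a2, 3 of 8, against 55.6%. None of the 8 held the AP-1 motif TGANTCA (6.75% of all windows), the Nr4a monomer motif AAAGGTCA (1.34%) or the Blimp1-like motif GNGAAAGT (3.53%). The shares are over windows of any GC content and were not matched to the GC content of these genes' windows. A match is a description of letters and not of binding.

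The stretches of these windows that lie before the first counted exon are given 5′ to 3′ for the genes with the core and for Dusp2, whose window held none of the motifs. Capitals mark TGACG on either strand, and the Nr4a3 stretch leaves out the copy in the exon.
Nr4a1, chr15:101266596-101266845 (+ strand): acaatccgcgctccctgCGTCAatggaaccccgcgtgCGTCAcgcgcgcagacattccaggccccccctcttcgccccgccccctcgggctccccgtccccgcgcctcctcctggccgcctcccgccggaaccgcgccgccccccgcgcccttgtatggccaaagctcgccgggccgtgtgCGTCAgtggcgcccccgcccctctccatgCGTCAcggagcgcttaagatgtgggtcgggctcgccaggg
Nr4a2, chr2:57124004-57124253 (- strand): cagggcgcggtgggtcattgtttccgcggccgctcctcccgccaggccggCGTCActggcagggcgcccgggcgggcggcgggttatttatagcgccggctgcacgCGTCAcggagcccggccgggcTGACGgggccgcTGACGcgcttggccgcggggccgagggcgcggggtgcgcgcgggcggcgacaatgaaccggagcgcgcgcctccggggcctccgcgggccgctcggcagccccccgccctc
Nr4a3, chr4:48045055-48045152 (+ strand): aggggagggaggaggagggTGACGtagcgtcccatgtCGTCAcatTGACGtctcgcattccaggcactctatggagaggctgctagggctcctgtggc
Dusp1, chr17:26508520-26508722 (- strand): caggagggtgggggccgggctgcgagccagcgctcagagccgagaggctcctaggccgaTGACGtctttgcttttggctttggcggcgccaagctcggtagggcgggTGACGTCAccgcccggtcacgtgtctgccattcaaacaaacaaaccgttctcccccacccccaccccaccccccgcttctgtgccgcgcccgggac
Dusp5, chr19:53528895-53529108 (+ strand): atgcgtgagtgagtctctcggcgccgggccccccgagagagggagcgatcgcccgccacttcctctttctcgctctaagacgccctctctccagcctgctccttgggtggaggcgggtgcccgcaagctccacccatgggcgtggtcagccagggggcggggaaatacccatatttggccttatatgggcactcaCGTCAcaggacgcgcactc
Dusp2, chr2:127335909-127336158 (+ strand): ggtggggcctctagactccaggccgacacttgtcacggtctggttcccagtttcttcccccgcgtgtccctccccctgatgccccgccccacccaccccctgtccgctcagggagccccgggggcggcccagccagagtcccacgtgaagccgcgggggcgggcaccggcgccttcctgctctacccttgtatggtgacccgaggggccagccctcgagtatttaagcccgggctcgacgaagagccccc
The windows of Nr4a2, Nr4a1 and Dusp2 were rich in G and C, at 80.0%, 74.4% and 70.4% over 250 bases, against 56.4% for Dusp6 and 59.6% for Dusp10.

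In the files' build, GRCm38, the genes lie apart except that Dusp2 and Nr4a2 share chromosome 2. Dusp2 spans chr2:127336159-127338376 on the + strand and Nr4a2 chr2:57106830-57124003 on the - strand. Dusp1 is at chr17:26505590-26508519, Dusp4 at chr8:34807297-34819894, Dusp5 at chr19:53529109-53542431, Dusp6 at chr10:99263231-99267488 and Dusp10 at chr1:184013302-184075636. Nr4a1 is at chr15:101266846-101274792 and Nr4a3 at chr4:48045153-48086447.

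For 4 of the genes, those whose pattern over the 8 samples was closest were sought among 17869 other genes, by the root mean square difference of log2 CPM centred on each gene's mean. Closest to Dusp2 were Mtch1 (0.31), Alyref (0.35) and Zmynd19 (0.41). Alyref, an mRNA export factor, was at 14.2 and 6.98 CPM in WT TIL and 93.7 and 126 CPM in KO TIL. Their richest windows held 63.5%, 79.5% and 84% G and C. Closest to Dusp6 were Plekhg3 (0.10), Acaca (0.12) and Ptpn6 (0.14), the last of which encodes the phosphatase SHP-1. Closest to Dusp10 were Impa2 (0.15), Gm3222 (0.21) and Gnb4 (0.23). Closest to Nr4a1 were Bcar1 (0.37), Amhr2 (0.39) and Fgl2 (0.40). Amhr2 was at 0 CPM in all 4 splenic samples and at 0.449 to 0.754 CPM in TIL. Its splenic log2 values, and so its distance, are thus set by the prior count of 2. Fgl2, a secreted Treg product, was at 94.7 and 31.3 CPM in WT spleen, 718 and 801 CPM in WT TIL, 67.2 and 60.9 CPM in KO spleen, and 951 and 336 CPM in KO TIL.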

How the data were processed

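RNA-seq of 8 libraries was analysed from raw counts. The authors trimmed reads with Trimmomatic 0.36, aligned them to GRCm38 with STAR 2.5.2b, counted unique reads within exons with featureCounts of Subread 1.5.2 and deposited raw counts per gene. The strand setting is not given in the sources used here. The table of normalized counts (8 columns) was not used. The members and lists were chosen with earlier results of these data known.

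Each comparison used its 4 libraries, and the interaction all 8, with edgeR 4.0.16 in R 4.3.3: TMM scaling, filterByExpr, quasi-likelihood test, adjusted p under 0.05 over all genes and a log2 fold change past 1 in either direction. The standard error was the log2 fold change over the root of F. The scripts were tested on simulated data. Genes named in lists were those with the 2 smallest p in each direction in WT TIL over WT spleen. Alternatives were DESeq2 1.42.0, its size factors, a fit over 8 libraries, no filter, a mean of at least 50 counts, the replicate number as a block, subtraction of the GC group median, and omission of each library. Pattern likeness used log2 CPM with a prior count of 2.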

Additional observations from a re-analysis of the deposited data

Results flagged for a closer look

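In 4 of the 9 genes KO over WT went opposite ways in the tissues, with both KO samples above both WT samples in TIL and below them in spleen. The same was seen for 317 of 14787 genes (2.14%) tested in both tissues. The interaction, as a log2 value, was 4.72 for Dusp2, 2.89 for Dusp5, 1.76 for Nr4a2 and 1.15 for Nr4a3. Less the median of genes of like GC content it was 3.60, 2.76, 1.84 and 1.24. Dusp2 was also the one gene of the 9 in which TIL over spleen went opposite ways in the genotypes, lower in WT and higher in KO, which is the same interaction of 4.72, and 340 of 15871 genes (2.14%) did the same. These differences were not tested, since the genes were chosen by them, and nothing is read from the counts.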

How the results depend on the processing

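The number of genes called by edgeR depended on the tool, the filter and single libraries. In WT TIL over WT spleen (981) it was 1805 with the DESeq2 Wald test, 1922 with no filter on low counts and 213 to 1401 without each library in turn, and the count called of the 8 genes other than Dusp2 (5) was 2 to 5 without each library and 5 under all other alternatives. In KO TIL over KO spleen (228) it was 3813 with DESeq2, 1743 in the fit over all 8 libraries, 3183 with no filter and 0 to 4958 without each library, and the count of the 8 (4) was 3 with the replicate block and 0 to 7 without each library. In spleen KO over WT (0 by edgeR, 489 at an unadjusted p under 0.05) it was 75 with DESeq2, 167 with no filter, 101 with the block and 21 to 3972 without each library. In TIL KO over WT (0 by edgeR, 1573 unadjusted) it was 761 with DESeq2, 135 in the fit over 8 libraries, 1072 with no filter and 728 with the block. For the interaction (0 by edgeR, 1399 unadjusted) it was 307 with DESeq2 and 752 with no filter. The cause was not tested, except that leaving out a library leaves 1 sample in a group, which is assumed to vary like the other group.

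In the tissue comparisons the direction of each of the 9 genes was kept under the 10 alternatives except for Dusp6 in WT TIL over WT spleen, at 0.31, which was -0.011 without WT spleen replicate 2 and up to 0.81 without replicate 1. Between genotypes, values changed sign without a single library for Dusp4, Dusp6, Dusp10 and Nr4a1 in spleen and for Dusp1 in TIL. In the interaction they did so for Dusp1 and Nr4a1. The interaction value of Nr4a1 also turned with the mean of at least 50 counts and less the GC group median (0.058). The values of Dusp2, Dusp5, Nr4a2 and Nr4a3 between genotypes kept their sign under all alternatives run. In WT tissue 8 of the 80 values of these 8 genes lost the call, and in KO tissue 9 of 80 lost it and 10 gained it. The tissue value of Dusp2 moved by more than the replicate SD in 2 of 10 alternatives in WT, without WT spleen replicate 1 (-2.99) and without replicate 2 (-1.86), and in 0 of 10 in KO. Between genotypes 8 of 90 values in spleen, 7 of 108 in TIL and 14 of 117 for the interaction moved by more than the replicate SD. With the replicate number as a block, Dusp4 missed the threshold in KO tissue (adjusted p = 0.0602 from edgeR, with a range of 1.8e-08 to 0.196 over the alternatives). Whether samples of one number belong together is not stated, and deviations of replicates correlated across 17870 genes, which are not independent, at -0.22 to 0.23 between groups. In TIL KO over WT less the GC group median, Dusp2 was at 2.52 and with the block at 2.53. The scaling alternative moved no median of all genes by over 0.1.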

Other observations

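Hras and Srf were, like Dusp2, lowest of the 4 groups in WT TIL and highest in KO TIL by group mean, with Hras overlapping between KO TIL and WT spleen. The genes given here were picked out after their values were seen and were not tested for a pattern. The share of all genes with this order of group means is not given. Hras, a GTPase upstream of ERK, was at 15.0 and 36.9 CPM in WT spleen, 9.02 and 4.89 CPM in WT TIL, 20.2 and 15.0 CPM in KO spleen, and 36.8 and 38.1 CPM in KO TIL. Srf, the serum response factor, was at 18.2 and 24.0 CPM in WT spleen, 6.21 and 5.13 CPM in WT TIL, 17.6 and 11.9 CPM in KO spleen, and 30.8 and 31.0 CPM in KO TIL. Their interaction log2 values were 2.99 and 2.96, and their richest windows held 76% and 83% G and C. The median interaction of genes in the same GC groups was 0.13 and 1.12. Mapk14 (79.5%) had a value of 1.75. Spry2, a feedback inhibitor of ERK signalling with a window of 63%, had another pattern and was not lowest in WT TIL. It was at 0.0599 and 0.499 CPM in WT spleen, 0.467 and 0.742 CPM in WT TIL, 0.193 and 0.203 CPM in KO spleen, and 5.84 and 7.63 CPM in KO TIL, with an interaction of 3.93.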
